A study of Anas platyrhynchos with 20 samples.

Results

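The genes described here are those of bile acid synthesis, transport and sensing: the bile acid enzymes CYP7A1 (the entry LOC101790267), CYP8B1, CYP27A1, CYP7B1 and AKR1D1, the bile acid transporters SLC10A1, ABCB11 and ABCC2, and the nuclear receptors NR1H4 and NR0B2. They are 10 of the 25117 genes in the table. Of these, 7 were found by their name in the table, and 3 (CYP8B1, CYP27A1 and CYP7B1) were found by gene ID, since the table lists them as LOC101797490, LOC101802865 and LOC101791081.

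Bile acids are made from cholesterol in hepatocytes. In the classical pathway CYP7A1 carries out the rate-limiting step, and in the alternative pathway CYP27A1 and CYP7B1 hydroxylate the sterol first. The bile acid receptor NR1H4 (also known as FXR) senses bile acids and in mammals induces NR0B2 (also known as SHP), a nuclear receptor without a DNA-binding domain that represses CYP7A1.

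RNA was sequenced from the liver and the breast muscle of male Runzhou white-crested ducks. All ducks received the same basal diet from 28 days of age for 28 days, with 2% duck oil in the control group and 2% linseed oil, an oil rich in alpha-linolenic acid, in the high linseed oil group, and they were fasted before killing. Day 28 is the time in the labels. Livers made up the groups CL and HL (control and high linseed oil) and breast muscles the groups CM and HM, with 5 libraries each and 20 in all. By the study's text the 20 libraries came from 10 ducks, which were selected by their n-3 PUFA ratio and so are not a random sample of each diet group. The labels do not tie a liver to a muscle library of the same duck, so both were fitted as independent in the comparisons between tissues. The values are FPKM (fragments scaled by gene length and library depth, here made comparable across libraries before deposit). The liver libraries held 15417718 to 16705165 fragments on genes, and the breast muscle libraries held 11852903 to 13432987.

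Tissue identity was clear from the markers of hepatocytes and skeletal muscle. The summed FPKM of 8 hepatocyte markers lay between 138231 and 246935 in liver and between 23.6 and 391 in breast muscle, and that of the 4 muscle markers found was at most 4.70 in the liver. A few libraries stood apart. CL 1 correlated less with the other CL libraries (median r = 0.914) than with the HL libraries (median r = 0.930), while the other CL libraries had 0.968 to 0.970 within CL. HL 3 likewise had 0.957 within HL and 0.962 with CL, and in the breast muscle HM 2 had 0.914 within HM and 0.934 with CM. HM 1 (0.958 within HM, 0.964 with CM) and HM 5 (0.957 and 0.963) did so by less. HL 1 had the lowest median r within HL (0.947), close to its 0.944 with CL. The values without CL 1 or HL 3 stand beside several of the results that these libraries moved, though not beside all of them. No pair of the 20 libraries was a copy, as the chi-square per degree of freedom between their fragments was 31.4 or more.

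The members differed by orders of magnitude in the liver. Ranked by mean FPKM over the 10 liver libraries, CYP27A1 (368) and AKR1D1 (317) came first, followed by CYP7B1 (104), ABCB11 (87.5) and NR1H4 (72.9). Then came CYP7A1 (23.8), ABCC2 (18.3), NR0B2 (11.7) and CYP8B1 (4.85). CYP27A1 was thus the member nearest to the top of the liver transcriptome, at rank 226 of the 9543 genes tested in the liver, and CYP8B1 the lowest of those tested, at rank 6197. All neighbours in this order had overlapping ranges, NR0B2 and CYP8B1 among them. AKR1D1 (lowest 135 FPKM) and CYP7B1 (highest 138 FPKM) overlapped only just.

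SLC10A1 is the sodium-dependent transporter that takes bile salts up into hepatocytes in mammals. Its entry was nearly silent in these livers, with 0 to 2 fragments in each of the 10 liver libraries. The breast muscle libraries held 2 to 17 fragments of it, at 0.0657 to 0.578 FPKM. It did not pass the filter on low values in either tissue and was not tested. Other carriers were read in the same livers. The SLCO1C1 entry matched by gene ID, LOC101800306, had a mean of 0 FPKM in CL and in HL. The SLCO1A2 entry, LOC101802312, had means of 31.3 FPKM in CL and 34.1 FPKM in HL. Of the entries chosen after their values were seen, the organic anion transporter entries LOC101800257 and LOC101799801, described in the table as SLCO1C1, had means of 119 ± 26.2 and 73.2 ± 17.3 FPKM in CL (SD, n = 5) and 124 ± 70.7 and 75.1 ± 5.71 FPKM in HL.

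**Figure D1:**
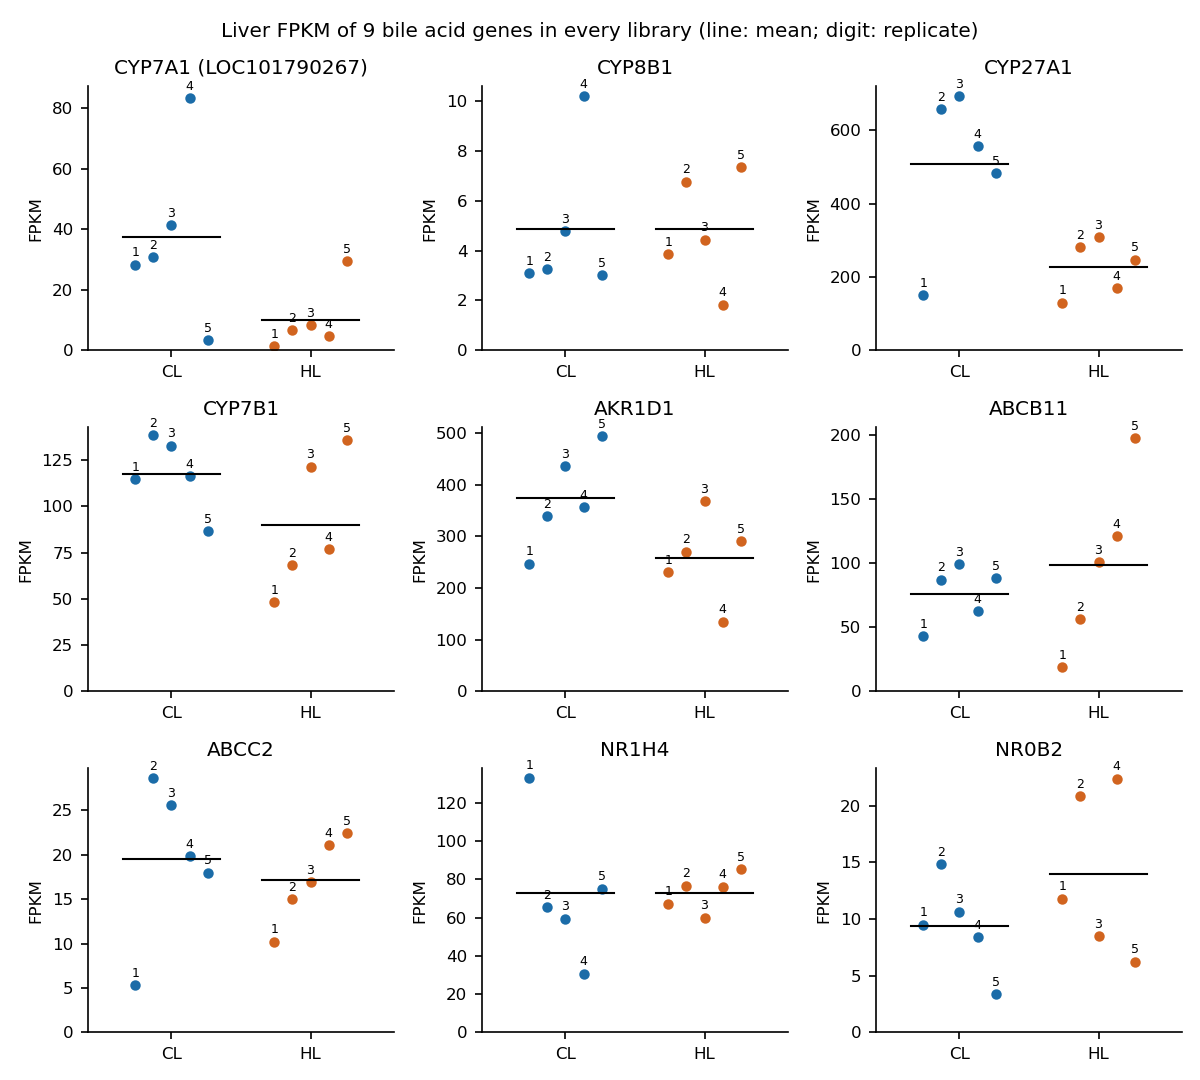
FPKM (vertical axes, from 0) of the 9 members above the filter in the 5 CL and 5 HL libraries, each point 1 library with its replicate number and each line the group mean. CYP7A1 lay below 10 FPKM in 4 of the 5 HL libraries and in CL 5, and CYP27A1 was low in CL 1 and in all HL libraries.

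The comparison of HL with CL asked whether linseed oil altered these genes in the liver. No member was called a DEG (Benjamini-Hochberg adjusted p below 0.05 over all genes tested, with a log2 fold change beyond 1 in either direction). Of the 10 members, 9 reached the filter (FPKM 1 or more in 5 or more of the 10 liver libraries), and 0 of the 9 were DEGs by limma, while 12 of 9543 genes were, 0.126% of those tested. With limma voom on the recovered fragments, 0 members were DEGs as well. Before adjustment 2 members, CYP7A1 and CYP27A1, had p below 0.05 in limma. Both were lower in HL, in which direction 517 genes (5.42% of those tested) had such a p. The median log2 fold change of the 9 members was -0.05, and that of all genes tested was -0.03.

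CYP7A1, the rate-limiting enzyme of the classical pathway, varied most of all members. In CL its level was 28.4, 30.8, 41.4, 83.3 and 3.29 FPKM in libraries 1 to 5. In HL it was 1.35, 6.64, 8.42, 4.64 and 29.5 FPKM. All 5 HL libraries lay below the CL median, but the groups overlapped, since CL 5 was as low as the HL libraries and HL 5 was within the CL range. The highest and lowest libraries differed 25.3-fold within CL and 21.9-fold within HL. Means were 37.4 ± 29.2 FPKM (SD, n = 5) in CL and 10.1 ± 11.2 FPKM (SD, n = 5) in HL. The log2 fold change in HL vs. CL was -1.79 (SE 0.78, unadjusted p = 0.0410, adjusted p = 0.380), so the difference did not pass the test, with a 95% interval from -3.49 to -0.09. It was -1.76 without CL 1 and -1.86 without HL 3. Over the 10 libraries left out in turn it lay between -2.45 (without CL 5) and -1.36 (without HL 1), and the unadjusted p was below 0.05 in only 2 of these 10 fits. The study, which used DESeq2 with the same thresholds, names CYP7A1 among its downregulated liver genes. That test was not run here.

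CYP8B1 directs the classical pathway towards cholic acid and was the least abundant enzyme of the members. Its CL values were 3.09, 3.25, 4.78, 10.2 and 3.01 FPKM, and its HL values 3.85, 6.76, 4.44, 1.83 and 7.35 FPKM. The groups overlapped throughout, and CL 4 stood above the rest. In HL vs. CL its log2 fold change was 0.02 (95% interval -0.73 to 0.77, adjusted p = 0.987), and its sign changed with several settings. The FPKM of CYP8B1 was 0.105 to 0.122 times that of CYP7A1 in CL 1 to CL 4, and 0.914 times in CL 5. In the HL libraries it was 0.249 to 2.85 times that of CYP7A1.

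CYP27A1, the mitochondrial sterol hydroxylase of the alternative pathway and of side-chain oxidation, was also lower in HL before adjustment. It had 151, 658, 692, 557 and 483 FPKM in CL 1 to CL 5. In HL 1 to HL 5 it had 130, 282, 309, 170 and 247 FPKM. Every HL library lay below CL 2 to CL 5, and CL 1 was at the level of the HL libraries. The means were 508 ± 216 FPKM in CL and 227 ± 75.4 FPKM in HL (SD, n = 5), and the log2 fold change was -1.05 (SE 0.41, 95% interval -1.94 to -0.16, unadjusted p = 0.0243, adjusted p = 0.312). This call depended on CL 1. Without it the log2 fold change was -1.45 with an adjusted p of 0.0330, which would make CYP27A1 a DEG, while 99 genes in all were called in that fit. Without HL 3 the log2 fold change was -1.18 with an adjusted p of 0.299. It was -0.87 without HL 1, the weakest of the 10 fits with a library left out. In 5 of these 10 fits the unadjusted p was below 0.05.

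CYP7B1, the oxysterol hydroxylase that follows CYP27A1, had 115, 138, 133, 116 and 86.4 FPKM in CL 1 to CL 5. Its HL values were 48.1, 68.2, 121, 76.8 and 136 FPKM. HL 1, HL 2 and HL 4 were below every CL library, and HL 3 and HL 5 were within the CL range. The log2 fold change of CYP7B1 was -0.46 (SE 0.27, 95% interval -1.06 to 0.14, adjusted p = 0.540). It was -0.27 without HL 1 and -0.64 without HL 5, the ends of the range over the libraries left out. AKR1D1, the steroid reductase shared by both pathways, had 247, 339, 435, 356 and 494 FPKM in CL and 230, 270, 368, 135 and 291 FPKM in HL. Its groups overlapped, with 4 of 5 HL libraries below the CL median. The log2 fold change of AKR1D1 was -0.56 (SE 0.28, 95% interval -1.17 to 0.04, adjusted p = 0.442). It was -0.35 without HL 4 and -0.71 without HL 3, the ends of its range. The unadjusted p of AKR1D1 in limma was below 0.05 in 2 of the 10 fits with a library left out.

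ABCB11, the bile salt export pump of the canalicular membrane, spread widely within HL. Its values were 43.2, 87.1, 99.1, 62.6 and 88.4 FPKM in CL 1 to CL 5. They were 18.8, 56.2, 100.7, 121 and 197 FPKM in HL 1 to HL 5, so that HL held both the lowest and the highest library. The highest HL library was 10.5 times the lowest, against 2.30 times in CL. In HL vs. CL ABCB11 had a log2 fold change of 0.07 (95% interval -1.07 to 1.198, adjusted p = 0.971), which leaves a difference of either sign possible. ABCC2, which exports conjugated organic anions into bile, had 5.34, 28.6, 25.6, 19.9 and 18.0 FPKM in CL and 10.2, 15.0, 16.9, 21.1 and 22.4 FPKM in HL. CL 1 was the lowest library, and the other CL libraries overlapped with HL 4 and HL 5. ABCC2 had a log2 fold change of -0.05 (95% interval -0.88 to 0.78, adjusted p = 0.969), which was -0.43 without CL 1.

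NR1H4, the bile acid receptor, had 133, 65.5, 59.4, 30.6 and 75.1 FPKM in CL. In HL it had 67.3, 76.6, 60.0, 76.2 and 85.2 FPKM. The CL libraries spread on both sides of the HL libraries, with CL 1 highest and CL 4 lowest, and the coefficient of variation was 51.6% in CL and 13.2% in HL. This difference in spread was not tested. NR1H4 had a log2 fold change of 0.15 (95% interval -0.53 to 0.82, adjusted p = 0.881), which was 0.40 without CL 1 and -0.12 without CL 4. NR0B2, the repressor that NR1H4 induces in mammals, had 9.51, 14.9, 10.6, 8.37 and 3.38 FPKM in CL 1 to CL 5 and 11.8, 20.9, 8.47, 22.4 and 6.25 FPKM in HL 1 to HL 5. HL 2 and HL 4 were above every CL library, and the other HL libraries were among them. The log2 fold change of NR0B2 was 0.50 (SE 0.39, 95% interval -0.35 to 1.35, adjusted p = 0.649), and 0.22 without CL 5.

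**Figure D2:**
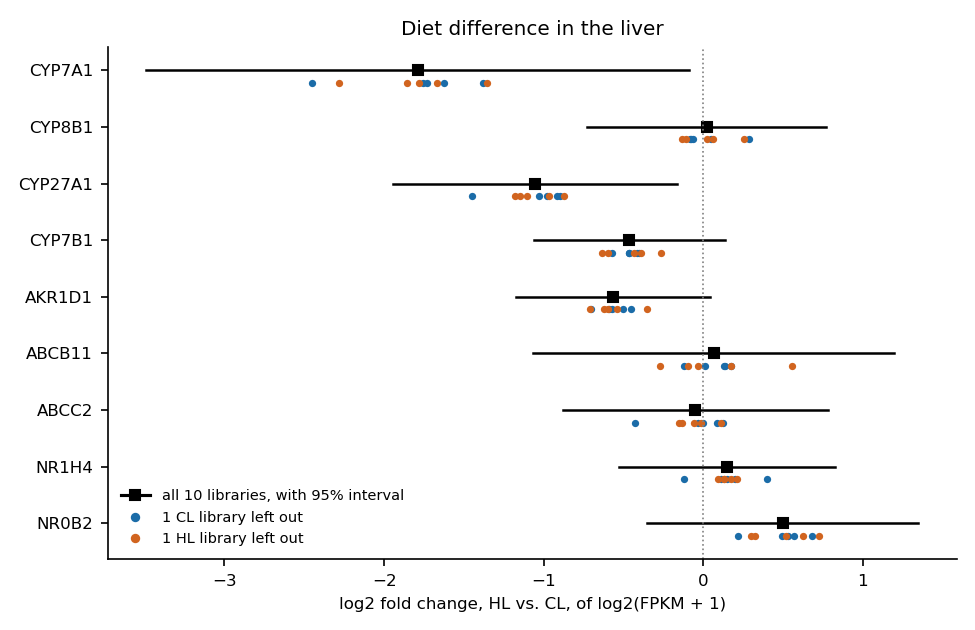
Log2 fold changes in HL vs. CL (horizontal axis) for the 9 members tested, with 95% intervals as bars, and the values when 1 CL or 1 HL library was left out as points below. CYP7A1 and CYP27A1 stayed below 0 whichever library was left out, and CYP27A1 reached -1.45 without CL 1, while CYP8B1, ABCB11, ABCC2 and NR1H4 fell on both sides of 0.

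Extreme libraries recurred across the members. Of the 9 members tested, CL 1 was the lowest CL library for 4 (CYP27A1, AKR1D1, ABCB11 and ABCC2) and the highest for NR1H4, and CL 5 was the lowest for a further 4 (CYP7A1, CYP8B1, CYP7B1 and NR0B2). HL 1 was the lowest HL library for 5 members, and HL 5 the highest for 6. The same shares over all genes tested were not computed, so these counts describe the libraries and are not particular to the members. CL 1 (0.914) and HL 1 (0.947) also had the lowest median r within their groups.

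Macrophage and endothelial markers differed between the diets in the liver. The summed FPKM of the 6 macrophage markers found of 8 listed was 28.2 to 53.1 in CL 2 to CL 5, 138 in CL 1, 96.8 in HL 3 and 246 to 470 in the other HL libraries. All 6 had an unadjusted p below 0.05 in limma and were higher in HL, and 1 of them (MRC1) was a DEG, against 5 without CL 1 and 6 without HL 3. Of all 9543 genes tested, 661 had such a p and were higher in HL, and 12 (0.126%) were DEGs. The DEGs over all genes were 99 without CL 1 and 60 without HL 3. The 7 endothelial markers summed to 18.2 to 31.5 FPKM in CL and 44.5 to 65.1 FPKM in HL. Of these, 6 were tested, all higher in HL at an unadjusted p below 0.05 in limma, and CDH5 and STAB2 were DEGs. VWF was below the filter and not higher in HL, with means of 0.310 FPKM in CL and 0.216 FPKM in HL. Summed hepatocyte markers were 146180 to 246935 FPKM in CL and 138231 to 201494 FPKM in HL. In limma 0 of the 8 were DEGs (1 at an unadjusted p below 0.05, lower in HL). All 8 had a log2 fold change below 0, from -0.82 to -0.003. Their median was -0.30, against -0.03 for all genes tested. The summed markers of the other listed cell types overlapped between the diets, and none of these markers was a DEG. The sums were 88.0 to 147 FPKM in CL and 118 to 145 FPKM in HL for stellate cells (0 of 7 at an unadjusted p below 0.05), 15.8 to 31.2 and 9.73 to 20.2 FPKM for bile duct cells (0 of 4), 12.6 to 31.8 and 12.4 to 33.3 FPKM for fat cells (0 of 4), and 4.65 to 13.8 and 11.1 to 22.7 FPKM for lymphocytes (2 of 4, higher in HL). No macrophage or endothelial marker was at 0 in a liver group. The part of the makeup of the tissue in the values of CYP7A1 and CYP27A1 was not tested, and in bulk tissue fewer hepatocytes and less RNA per hepatocyte cannot be told apart.

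Across the 10 liver libraries, 8 pairs of members were compared on log2(FPKM + 1). Some joined a regulator and a possible target, and others, such as CYP7A1 with CYP7B1, joined genes of bile acid synthesis or of transport. The pairs were chosen with earlier results of these data known. CYP7A1 and CYP7B1 rose and fell together, with Pearson's r = 0.83 (permutation p = 0.0031, adjusted over the 8 pairs p = 0.0248) and Spearman's rho = 0.77 (permutation p = 0.0122, adjusted p = 0.0976). Without CL 4 and HL 1, the libraries farthest from the CYP7A1 median, r was 0.82 (permutation p = 0.0190). The permutations shuffled libraries across both diets, so each p here includes any diet difference that both genes of a pair share. The deviations from the diet means had r = 0.77, a description without a p-value. With 9 libraries r was 0.74 to 0.89 over the libraries left out. The adjusted permutation p was then above 0.05 without CL 1, CL 2, CL 3, HL 1 or HL 5, reaching 0.215 without HL 1. The 5 genes outside the members most like CYP7A1, named below, had a higher r with it (0.91 to 0.94). How common an r of 0.83 with CYP7A1 was over all genes was not computed. CYP7A1 and CYP8B1 had r = 0.52 (permutation p = 0.125, adjusted p = 0.498; rho = 0.58, permutation p = 0.0871), and r = 0.28 without CL 4.

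The repressor and its targets did not show a relation that passed the test. NR0B2 with CYP7A1 had r = -0.10 (permutation p = 0.786, adjusted p = 0.959) and rho = -0.19 (permutation p = 0.607). HL 2 and HL 4, high in NR0B2, were low in CYP7A1, but CL 5 was the lowest in NR0B2 and low in CYP7A1 as well, and without CL 5 r was -0.50 (adjusted permutation p = 0.398). NR0B2 with CYP8B1 had r = -0.19 and rho = -0.27 (permutation p = 0.603 and 0.449). The receptor NR1H4 had r = 0.04 with NR0B2 and r = -0.02 with ABCB11, a gene that NR1H4 induces in mammals (rho = 0.09 and -0.03, permutation p = 0.911 and 0.959 for r). The latter r was 0.23 without CL 1. The pairs of SLC10A1 rest on 0 to 2 fragments and carry no information on it (r = 0.07 with NR0B2 and -0.41 with ABCB11, permutation p = 0.838 and 0.243).

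**Figure D3:**
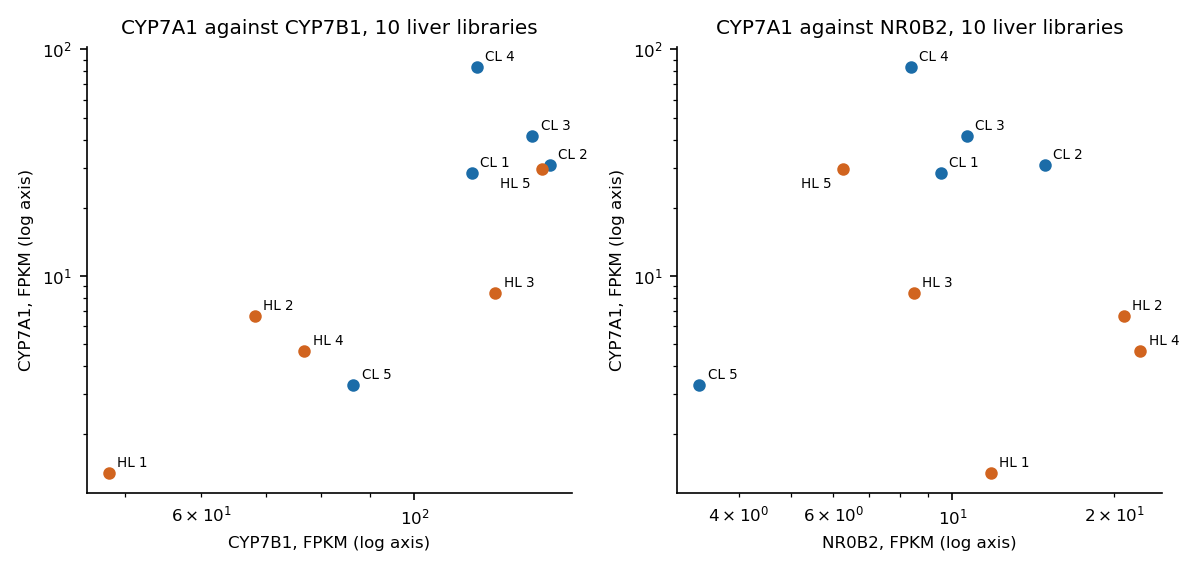
FPKM of CYP7A1 (vertical, log axis) against CYP7B1 (left) and NR0B2 (right, log axes) in the 10 liver libraries, each point labelled by library. CYP7A1 and CYP7B1 increased together (r = 0.83), and CYP7A1 showed no such order against NR0B2 (r = -0.10).

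Among 8564 other tested genes with a symbol, those whose level across the 10 liver libraries was most like that of CYP7A1 were ACLY (r = 0.94), which makes cytosolic acetyl-CoA from citrate, RSU1 (r = 0.92), DDX58 (r = 0.92), NFIA (r = 0.91) and EPSTI1 (r = 0.91). ACLY had 145 ± 42.7 FPKM in CL and 99.1 ± 50.1 FPKM in HL (SD, n = 5), with a log2 fold change of -0.61 (adjusted p = 0.458). These correlations are descriptions over libraries that share their diet and composition.

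A wider list of the pathway was then read in the liver. Of 51 listed genes, 44 were matched in the table and 34 were tested in HL vs. CL, and 0 of the 34 were DEGs in limma. At an unadjusted p below 0.05 there were 8, of which 3 were higher and 5 lower in HL, against 12.3% of all genes tested. The median log2 fold change of the 34 was 0.04, with -0.03 over the 9 synthesis genes, 0.13 over the 11 transport genes and -0.01 over the 14 sensing genes. The 267 tested genes whose HL and CL libraries did not overlap were 2.80% of all, and 1 of the 34 was among them.

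That gene was NR1H3, the liver X receptor alpha, which senses oxysterols. It had 38.6, 32.5, 37.6, 23.8 and 25.5 FPKM in CL and 53.0, 49.8, 38.7, 44.4 and 50.4 FPKM in HL, so that HL 3 lay only just above CL 1. Its log2 fold change was 0.58 (SE 0.18, unadjusted p = 0.00617, adjusted p = 0.200), and 0.66 without CL 1 and 0.65 without HL 3. The weakest fit for NR1H3 with a library left out was 0.49, without CL 4. PPARA, the receptor that fatty acids activate, had 25.5 to 43.8 FPKM in CL and 38.8 to 67.7 FPKM in HL, with a log2 fold change of 0.69 (SE 0.20, unadjusted p = 0.00568, adjusted p = 0.193), and 0.73 without CL 1 and 0.65 without HL 3. Its weakest fit with a library left out was 0.60, without CL 3. ABCC3, a basolateral exporter, was the third gene higher in HL before adjustment, with a log2 fold change of 0.32 (adjusted p = 0.351). With a library left out, that of ABCC3 lay between 0.26 (without CL 5) and 0.38 (without HL 3). Its level was near the filter, at 0.806 to 1.34 FPKM in CL and 1.27 to 2.09 FPKM in HL, where the pseudocount of 1 shrinks a fold change.

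The 5 genes lower in HL before adjustment included SLC51A, a subunit of the basolateral bile acid exporter. SLC51A had 37.4, 117, 123, 124 and 96.1 FPKM in CL and 23.2, 41.6, 49.1, 43.9 and 77.8 FPKM in HL. As with CYP27A1, CL 1 lay among the HL libraries, and the log2 fold change of -1.05 (SE 0.37, unadjusted p = 0.0157, adjusted p = 0.272) became -1.36 (adjusted p = 0.0405) without CL 1. For SLC51A it was -0.82 without HL 1, and the adjusted p in limma reached 0.533 over the libraries left out. SLC51B, the other subunit, had 77.6 to 249 FPKM in CL and 53.3 to 176 FPKM in HL, with a log2 fold change of -0.59 (adjusted p = 0.556). The other 4 were KLB, the co-receptor for the intestinal signal FGF19, with a log2 fold change of -0.79 (adjusted p = 0.319), ATP8B1, a phospholipid flippase (-0.69, adjusted p = 0.305), CEBPB, a transcription factor (-0.57, adjusted p = 0.273), and SCP2, which takes part in peroxisomal side-chain cleavage (-0.43, adjusted p = 0.374). The value of SCP2 was -0.064 with quantile normalization, and that of ATP8B1 was -1.43 with voom. With a library left out, the weakest values were -0.53 for ATP8B1 (without CL 1) and -0.45 for CEBPB (without HL 3). ATP8B1 was also near the filter, at 1.25 to 3.57 FPKM in CL and 0.190 to 1.45 FPKM in HL. The remaining 26 genes had log2 fold changes from -0.78 to 0.55. SLC10A2, the ileal bile acid carrier, was at 0 in all 20 libraries.

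**Figure D4:**
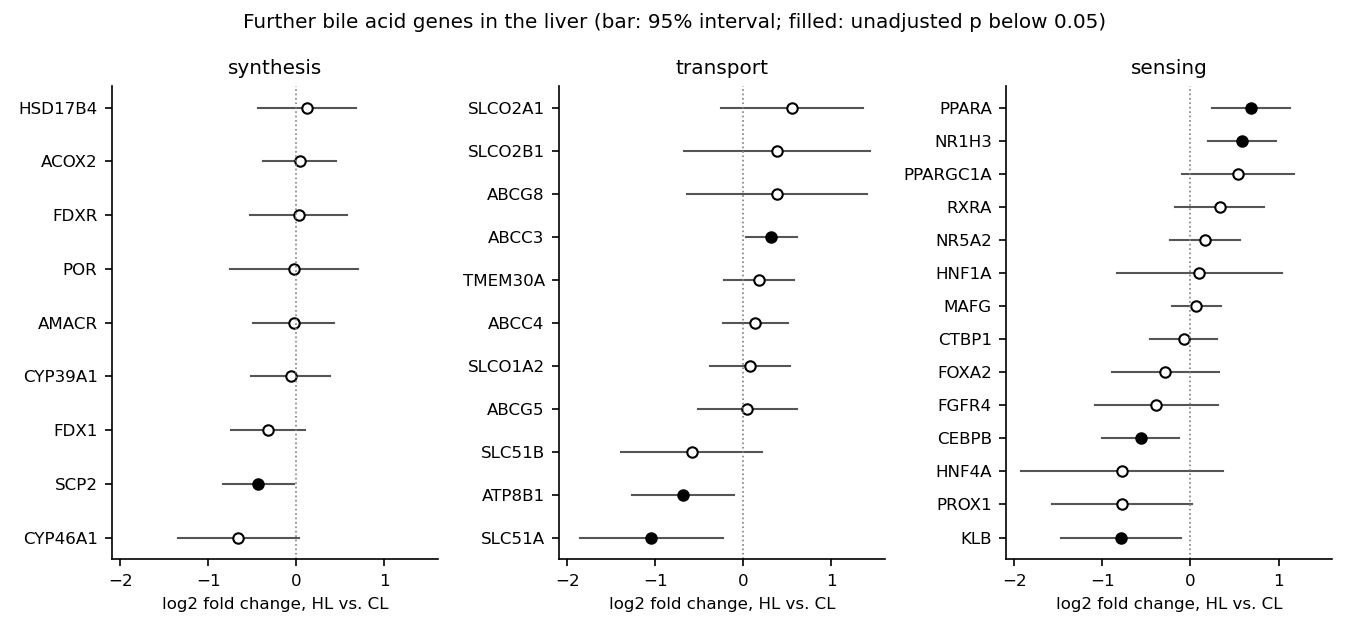
Log2 fold changes in HL vs. CL (horizontal axes) with 95% intervals for the 34 further genes tested, as 9 synthesis, 11 transport and 14 sensing genes, filled where the unadjusted p was below 0.05. SLC51A, ATP8B1, KLB, CEBPB and SCP2 were lower and PPARA, NR1H3 and ABCC3 higher, and none was a DEG.

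In the breast muscle, only CYP27A1, CYP7B1 and AKR1D1 passed the filter, and the diets did not differ detectably. By limma 0 of these 3 members and 0 of the 10148 genes tested (0.0%) were DEGs in HM vs. CM, with an unadjusted p below 0.05 for 0 members and for 558 genes (5.50%). With limma voom on recovered fragments there were also 0 DEGs. CYP27A1 had 8.65, 8.38, 9.89, 7.63 and 8.82 FPKM in CM and 10.2, 16.2, 8.48, 6.23 and 7.86 FPKM in HM (log2 fold change 0.10, 95% interval -0.34 to 0.54, and -0.09 without HM 2). CYP7B1 ranged from 1.92 to 2.84 FPKM in CM and from 1.03 to 2.59 FPKM in HM (log2 fold change -0.19, 95% interval -0.55 to 0.17, and -0.065 without HM 2). AKR1D1 was the most variable, with 6.51, 47.5, 28.2, 13.4 and 23.6 FPKM in CM and 5.25, 11.7, 20.54, 5.74 and 21.4 FPKM in HM. CM 2 was its highest library, and the log2 fold change of -0.77 (95% interval -1.88 to 0.33, adjusted p = 0.921) was -0.47 without CM 2 and -1.14 without CM 1.

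The other members were near 0 in the breast muscle. CYP7A1 had 0 fragments in 8 of the 10 libraries, 1 in CM 4 and 2 in CM 5. NR1H4 had 0 to 4 fragments, NR0B2 0 to 6, ABCC2 0 to 8, ABCB11 4 to 18 and CYP8B1 1 to 24 fragments per library. A count of 0 in a library allows up to 3 fragments, and these limits cover counting error only.

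Between the tissues all 9 members that passed the filter were DEGs higher in the liver, in CL vs. CM (20.4% of the genes tested were DEGs higher in liver) and in HL vs. HM (19.8%). With the replicate number as a block, as if a number named 1 duck, the same count of 9 was called in both. Most of them passed the filter through the liver alone, so this count is a description. The liver level was 58.6 times the breast muscle level for CYP27A1 in CL vs. CM and 23.2 times in HL vs. HM, 51.1 and 46.6 times for CYP7B1, and 15.7 and 20.02 times for AKR1D1. The log2 fold changes were 5.55 and 4.40 for CYP27A1, 5.16 and 4.88 for CYP7B1, 4.14 and 4.35 for AKR1D1, 4.73 and 2.97 for CYP7A1, 2.06 and 2.25 for CYP8B1, 6.07 and 6.06 for ABCB11, 4.13 and 4.09 for ABCC2, 6.01 and 6.17 for NR1H4 and 3.17 and 3.68 for NR0B2. The pseudocount of 1 limits those of the members near 0 in the breast muscle. The folds here and the percentages below rest on the scaling across libraries. With scaling by summed fragments the log2 fold changes were 4.59 and 3.71 for CYP27A1, 4.29 and 4.28 for CYP7B1 and 3.16 and 3.66 for AKR1D1. CYP7A1, with 0 fragments in every HM library, was at least 127-fold higher in HL than a floor of 3 fragments per HM library, and at least 66.1-fold without HL 5.

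The breast muscle level of the enzymes can be set beside that of secreted hepatocyte proteins. As a percentage of the mean liver FPKM of the same diet, AKR1D1 was at 1.74% to 12.7%, CYP27A1 at 1.502% to 7.12%, CYP7B1 at 1.14% to 2.88% and CYP8B1 at 0.502% to 12.5% in the 10 breast muscle libraries. ALB, the serum albumin, was at 0.00432% to 0.0949% in the same libraries, and ABCB11 at 0.0575% to 0.230%. The 8 hepatocyte markers together ran from 0.00221% (FGB) to 1.74% (APOA1 in HM 2). APOA1 in HM 2 was thus above the lowest CYP7B1, CYP27A1 and CYP8B1 values, while the other 7 markers were at most 0.240%.

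**Figure D5:**
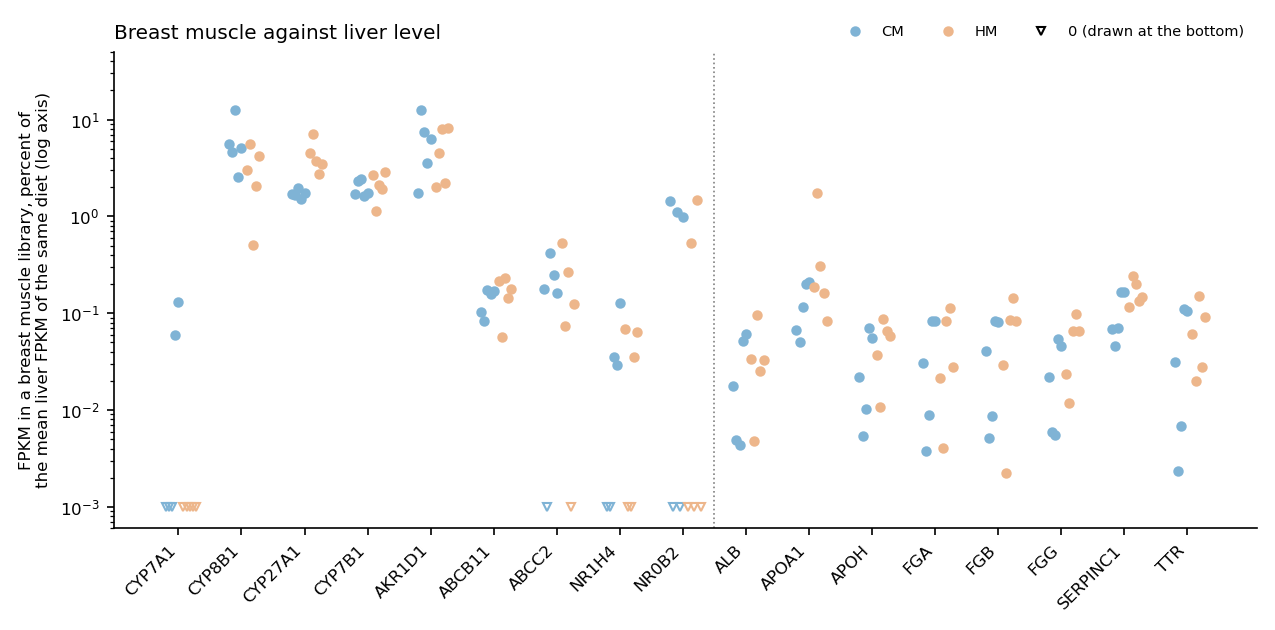
FPKM in each CM and HM library as a percentage of the mean liver FPKM of the same diet (vertical, log axis), for 9 members and, right of the dotted line, the 8 hepatocyte markers, with values of 0 drawn as open triangles at the bottom. CYP27A1, CYP7B1 and AKR1D1 lay between 1.14% and 12.7%, ALB at up to 0.0949% and APOA1 at up to 1.74%.

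An interaction term over all 20 libraries tested whether the diet difference (HL minus CL) in the liver departed from that in the breast muscle (HM minus CM). None of the 9 members tested was a DEG in limma, and 1 of 11256 genes was (0.00888%). CYP27A1 (log2 difference -1.15, SE 0.47, unadjusted p = 0.0245, adjusted p = 0.518) and CYP7A1 (-1.77, SE 0.83, unadjusted p = 0.0465, adjusted p = 0.611) had an unadjusted p below 0.05, as had 8.11% of all genes tested. With the replicate number within a diet as a block, the unadjusted p was 0.0170 for CYP27A1 and 0.0384 for CYP7A1 (adjusted p = 0.443 and 0.537). CYP7A1 was near 0 in both breast muscle groups, so its interaction restates the liver comparison.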

How the data were processed

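The authors deposited 1 table of FPKM values for 25117 genes in 20 libraries. By the study's methods, poly-T purified mRNA was sequenced on an Illumina platform and aligned with HISAT2 2.0.5, and uniquely mapped reads were quantified, so genes with close copies (the P450 genes among them) may lose reads. The build was the duck assembly ZJU1.0, and the counting strand is not given in the sources used here. Within each library, 100% of FPKM times gene length were whole multiples of 1 step (tolerance 0.01), which gave the fragments, and the values were already scaled across libraries by median-of-ratios size factors. Gene IDs were matched to NCBI's RefSeq annotation of another Pekin duck assembly, for names only (20868 IDs matched).

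Differences were fitted by limma 3.58.1 under R 4.3.3 (eBayes with a trend) on log2(FPKM + 1), which understates the changes of low genes, keeping genes that reached FPKM 1 in 5 or more libraries of the fit. Since the deposited unit is FPKM, limma was chosen in place of the DESeq2 test of the authors. DESeq2 was not run on the recovered fragments, which served for the voom alternative. Correlations used 100000 permutations with scipy 1.17.1 in Python 3.11.15, and figures were drawn with matplotlib 3.10.9. Of the tests, only the limma fit of HL vs. CL at its main setting was run on simulated data with known fold changes. All p-values are two-sided. The members, the lists and the rules were chosen with earlier results of these data known. The named genes were every member, the genes of the wider list with an unadjusted p below 0.05 or groups that do not overlap in HL vs. CL, and the 5 genes most correlated with CYP7A1. SLC10A2, SLC51B, SLCO1C1, SLCO1A2 and the entries matched by description were added after their values were seen. Of the 51 listed genes, 44 were matched. Alternatives tried were smaller pseudocounts (0.1, 0.5), no filter, a filter at FPKM 5, scaling by summed fragments, quantile normalization, voom on recovered fragments (10 or more in 5 or more libraries), 1 fit of all 20 libraries, a block for the replicate number, and leaving out single libraries. The 20 libraries came from 10 ducks, but neither the labels nor the study's text say that liver and muscle libraries of 1 number come from 1 duck.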

Additional observations from a re-analysis of the deposited data

Results flagged for a closer look

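Of 30 groups of 5 libraries of the members with at least 10 fragments in a library, 2 had a library far from the others by Dixon's test (gap to the nearest library over the range of the group), where chance flags about 1 in 20. CYP7A1 was 29.5 FPKM in HL 5, the highest of HL, with the next HL library at 8.42 FPKM (ratio 0.749). CYP8B1 was 10.2 FPKM in CL 4, the highest of CL, with the next CL library at 4.78 FPKM (ratio 0.753). Without HL 5 the log2 fold change of CYP7A1 in HL vs. CL was -2.28, and without CL 4 that of CYP8B1 was 0.29.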

How the results depend on the processing

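The count of DEGs in HL vs. CL was 12 and became 5 with a pseudocount of 0.1, 3 with no filter, 4 with an FPKM of at least 5, 24 with scaling by summed fragments, 30 with voom, 83 with all 20 libraries in 1 fit and 3 to 99 with 1 library left out (99 without CL 1, 60 without HL 3). With the replicate number as a block it was 0, but between diets that block joins different ducks that share only a number. The members called stayed at 0 in these fits but for CYP27A1 without CL 1, so that the count was 0 to 1. HM vs. CM had 0 DEGs and 1 with summed fragments, 3 with all 20 libraries and 1 with the replicate block. The interaction had 1 DEG and 0 with a pseudocount of 0.1, 0 with voom, 2 with summed fragments, 0 with the replicate block and 1 to 50 with 1 library left out. Leaving out a liver library left 3 members called between the tissues, as only 4 liver libraries could then pass the filter (range 3 to 9). Scaling by summed fragments shifted the median of all genes by 0.12 in HL vs. CL, -0.82 in CL vs. CM and -0.60 in HL vs. HM. The cause of the other changes was not tested.

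The log2 fold changes near 0 changed sign with some settings. In HL vs. CL, CYP8B1 was -0.023 with quantile normalization and -0.035 with voom, and ABCC2 was 0.11 with summed fragments and 0.0045 with quantile normalization. With 1 library left out CYP8B1 was -0.13 to 0.29, ABCB11 -0.27 to 0.56, ABCC2 -0.43 to 0.13, NR1H4 -0.12 to 0.40 and, in HM vs. CM, CYP27A1 -0.087 to 0.23. With 9 libraries r was -0.50 to 0.055 for NR0B2 with CYP7A1, -0.50 to 0.13 for NR0B2 with CYP8B1, -0.10 to 0.13 for NR1H4 with NR0B2, -0.15 to 0.23 for NR1H4 with ABCB11, -0.14 to 0.47 for NR0B2 with SLC10A1 and 0.74 to 0.89 for CYP7A1 with CYP7B1. CYP7A1 with CYP8B1 had 0.28 to 0.62 and SLC10A1 with ABCB11 -0.62 to -0.14. Among values that kept their sign, SCP2 was -0.25 with summed fragments and -0.064 with quantile normalization, ATP8B1 -1.28 with a pseudocount of 0.1 and -1.43 with voom, and ABCC3 0.52 and 0.57 in these. Libraries of 1 number correlated (deviations from group means) at -0.16 to 0.33 for HL and CL, -0.061 to 0.37 for HM and CM, 0.0048 to 0.24 for CL and CM and -0.12 to 0.25 for HL and HM. No comparison had every pair over 0.1 (2 or 3 of 5), so the numbers were not treated as pairs.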
